A study of Homo sapiens with 11 samples.

Results

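Of the 1815 places where the glucocorticoid receptor (GR) was called on chromatin in dexamethasone-treated Ishikawa cells, 692 were called again when estradiol was added and were never called for the estrogen receptor (ER). They made up 38.1% of that GR list (35.9 to 40.4). Sites were chosen by the GR and ER calls: a site belonged here when its peak shared at least 1 bp with a GR peak of the combined treatment and with no ER peak of the estradiol or the combined treatment. These sites are called stable GR sites without ER below, where stable means only that the site was called in both GR lists. Most of them carried no peak of acetylated histone H3 lysine 27 (H3K27ac) in any treatment. Where the H3K27ac calls differed between a treatment and vehicle, more sites had the mark with dexamethasone, or with both hormones, than with vehicle alone.

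GR is a nuclear receptor that waits largely in the cytoplasm, moves to the nucleus when a glucocorticoid such as dexamethasone binds it, and attaches to DNA directly or through other proteins. ER is its relative that answers to estradiol and drives growth in much of the endometrium and in many endometrial cancers. H3K27ac lies on the nucleosomes that flank active promoters and enhancers, and nucleosomes are usually displaced where a factor sits on the DNA.

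Ishikawa is an established human endometrial cancer line, kept here in medium with hormone-stripped serum before treatment, so all groups share that depletion. Cells received 100 nM dexamethasone, 100 nM dexamethasone with 10 nM estradiol (the combination), 10 nM estradiol, or the DMSO vehicle. GR was mapped with dexamethasone and with the combination and ER with the combination and with estradiol, all after 1 h, whereas H3K27ac was mapped in all 4 groups after 8 h per the treatment labels. The series has 11 samples. The peak lists of 8 of them were read, each from 1 library without replicates. Receptor binding at 8 h and the vehicle receptor lists were not analysed here. Since each group is 1 library of 1 cell line, no test between treatments was possible. Intervals in parentheses are 95% ranges that cover counting error over sites, not the spread between cultures.

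A missing call depends on the depth of a library. Usable tags numbered 6353466 for GR with dexamethasone and 5206574 with the combination. Only the dexamethasone GR library exceeded the 5735043 tags of the GR control. For ER, usable tags numbered 8508828 with estradiol (3560 peaks) and 7625049 with the combination (2382 peaks). Both ER libraries exceeded their control of 3479280 tags. For H3K27ac, usable tags numbered 9034395 with dexamethasone, 9657258 with the combination, 10852521 with estradiol and 18508574 with vehicle. The dexamethasone H3K27ac list was the shortest, with 15192 peaks of a median of 471 bp, against 20873 of 596 bp with the combination, 23888 of 650 bp with estradiol and 21120 of 547 bp with vehicle. Duplicate tags were also most common in the dexamethasone library, at 33%, against 18% to 22% in the others. The vehicle library exceeded the 14002417 tags of the control that the 4 H3K27ac lists share, and the other 3 H3K27ac libraries did not. The part of depth and of its scaling to the control in the missing calls was not tested.

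The stable GR sites without ER were mostly among the stronger peaks of the dexamethasone list. Fold enrichment, the authors' ratio of peak height to local control background, had a median of 19.0 at these sites in the dexamethasone list (quartiles 13.6 and 28.6, range 5.44 to 96.7). It was 13.1 at the 339 stable GR sites with ER, 11.0 at the 672 sites called with dexamethasone alone and without ER, and 7.89 at the 112 dexamethasone-only sites with ER. The median of the whole list was 13.0. In the combination list, the peaks behind the stable sites without ER had a median fold of 14.8, against 13.5 for all combination GR peaks. Those behind the stable sites with ER had 14.2, with a higher median −log10 q (32.2 against 27.6). Peak height with dexamethasone had medians of 35.2 at the stable sites without ER and 36.1 at those with ER. These values come from the lists that chose the sites, so they are a description and no test.

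Sorted by the authors' −log10 q, the strongest 25% of the dexamethasone list held 321 of them among 454 peaks (70.7%). The next 25% held 202 (44.5%), the third held 107 (23.6%) and the weakest held 62 (13.7%). Of the 10 strongest dexamethasone GR peaks, 5 were such sites, as were 63 of the strongest 100. In the combination list they took 1 of the strongest 10 and 38 of the strongest 100. Of all 1628 combination GR peaks, 690 lay behind such sites, so these counts were not above that share.

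GR summits of both treatments lay close together, which the rule partly required. It took only overlapping peaks, with median widths of 171.5 bp with dexamethasone and 148 bp with the combination. The offsets are therefore a description. The summits of the dexamethasone and combination peaks lay a median of 12 bp apart (quartiles 6 and 23, at most 190 bp). They were within 10 bp at 311 sites and within 100 bp at 686. At the stable sites with ER the median offset was 17 bp. The 692 sites rested on 690 combination peaks, because 4 sites shared a combination peak with a neighbour.

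**Figure D1:**
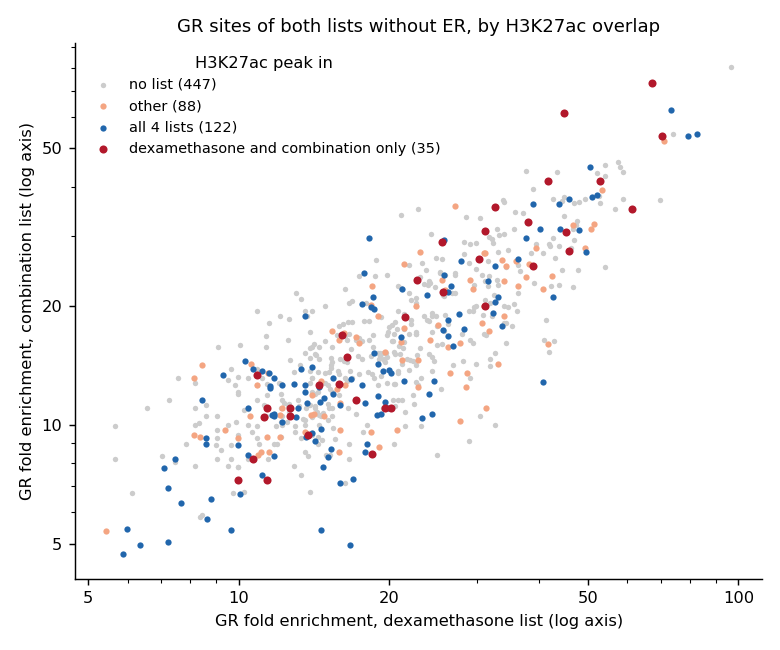
GR fold enrichment of each of the 692 stable GR sites without ER, with dexamethasone on the horizontal and with the combination on the vertical axis, both logarithmic. Each point is 1 site, coloured by the H3K27ac lists that overlap it: 447 in no list, 122 in all 4, 35 with dexamethasone and the combination only, and 88 with other patterns. Sites of every colour lie across most of the range, and the highest dexamethasone fold, 96.7, belongs to a site without H3K27ac.

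The edges of the rule touched few sites. The site with the least overlap, chr16:27781362-27781475 (hg19, as are all positions), overlapped its combination GR peak by 2 bp, and the next by 51 bp. The site closest to an ER peak, chr12:53339498-53339651, lay 2 bp from it, followed by sites 36 and 47 bp away. Just outside, a dexamethasone GR peak at chr7:97050935-97051086 missed a combination peak by 25 bp, and a stable site at chr10:123271614-123271720 was left out because it overlapped an ER peak by 14 bp.

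The strongest sites are described singly, and their H3K27ac patterns did not have the same proportions as in the class. The one with the highest −log10 q, chr6:30894572-30894828, had a GR fold of 96.7 with dexamethasone and 80.2 with the combination and ranked 2 and 7 in those lists. It carried no H3K27ac in any treatment: the nearest peak was 18.3 kb away with dexamethasone, 18.2 kb with the combination, 11.9 kb with estradiol and 12.1 kb with vehicle. The next, chr17:8057659-8057936, had GR folds of 70.3 and 53.6. It lay in an H3K27ac peak of 905 bp with dexamethasone and of 1355 bp with the combination, with folds of 17.3 and 19.3, while the nearest peak was 7.59 kb away with estradiol and 2.27 kb away with vehicle. So these leading sites of the class differed in H3K27ac although both bound GR strongly with either treatment.

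Of all 692 sites, 17.6% overlapped H3K27ac in all 4 lists and 64.6% in none. Of the 10 strongest sites, 5 overlapped H3K27ac in all 4 lists, 2 with dexamethasone and the combination only, 1 with dexamethasone only and 2 in no list. The 5 marked throughout were chr20:10842224-10842491, chr10:74008602-74008862, chr5:148345996-148346239, chr12:52636919-52637189 and chr5:157339708-157339960, with dexamethasone GR folds of 82.6, 73.2, 79.4, 50.4 and 45.8. At chr10:74008602-74008862 the H3K27ac peak was 2404 bp wide with dexamethasone and 2236 bp with the combination, against 1035 bp with estradiol and 467 bp with vehicle. At chr5:148345996-148346239 it was 1351 bp wide with dexamethasone and 1203 bp with the combination, against 909 bp with estradiol and 615 bp with vehicle. At chr12:52636919-52637189 it was wide in every list, with 6258 bp with dexamethasone, 6457 bp with the combination, 7308 bp with estradiol and 6134 bp with vehicle. A call in all 4 lists thus covered both a broad region present throughout and a region that was narrow with vehicle. Widths depend on depth and on the fragment length of each library, whose part in these values was not tested.

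The site marked with dexamethasone only, chr4:138676402-138676657 (GR fold 71.1), had its nearest combination H3K27ac peak 117 bp away, and its nearest estradiol and vehicle peaks 276 kb away. Within 1 kb it therefore had the mark in both dexamethasone-containing treatments and in neither other. The remaining unmarked site among the strongest 10, chr11:61462979-61463204 (GR fold 73.9), was 68.7 to 96.6 kb from H3K27ac in every list.

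H3K27ac covered a minority of the stable GR sites without ER in every treatment. The peaks of the dexamethasone list overlapped 192 sites (27.7%, 24.4 to 31.2). With the combination the count was 217 (31.4%, 27.9 to 35), with estradiol 160 (23.1%, 20 to 26.4) and with vehicle 155 (22.4%, 19.3 to 25.7). Over all 1815 dexamethasone GR sites the shares were 36.9%, 43.9%, 39.7% and 37.2% in the same order. The class thus had fewer marked sites than the GR list as a whole in each treatment. At these sites vehicle was lowest, close to estradiol, and over all GR sites dexamethasone and vehicle were nearly level. Within 1 kb vehicle was lowest in both, at 28.8% of these sites and 45.5% of all.

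The gap to the GR sites that also bound ER was wide in every treatment. Stable GR sites with ER had H3K27ac at 59.9% with dexamethasone, 71.4% with the combination, 64.9% with estradiol and 57.5% with vehicle. The stable sites without ER were lower by 32.1 percentage points with dexamethasone (difference -32.1, -38.1 to -25.8), and the differences were -40.0 with the combination (-45.7 to -33.9), -41.8 with estradiol (-47.5 to -35.6) and -35.1 with vehicle (-41.1 to -28.9). All 4 intervals excluded 0. The rule did not use H3K27ac, but it used the ER calls that separate these classes. Whether ER peaks lie more often at H3K27ac in general was not tested, so the comparison is a description.

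Set against GR sites called with dexamethasone alone and without ER, the stable sites were close with dexamethasone and lower with estradiol and with vehicle. The dexamethasone-only class had H3K27ac at 30.5% with dexamethasone, 36.8% with the combination, 36.6% with estradiol and 35% with vehicle. The differences, stable minus dexamethasone-only, were -2.76 points with dexamethasone (-7.57 to 2.06), -5.40 with the combination (-10.4 to -0.369), -13.5 with estradiol (-18.2 to -8.64) and -12.6 with vehicle (-17.3 to -7.78). By overlap the interval for dexamethasone included 0, so no difference was detectable by that measure, and the other 3 lay below it, that of the combination narrowly. Within 1 kb the dexamethasone difference was -6.29 points (-11.5 to -1.02), an interval below 0. Since the dexamethasone-only peaks were weaker, the classes also differed in GR strength. In the strongest 25% of the GR list the differences were -25.9 points with the combination, -30.6 with estradiol and -32.5 with vehicle, but only 18 dexamethasone-only sites fell there. Within the 25% bins the estradiol interval excluded 0 in all 4, with differences of -30.6, -18.2, -11.2 and -15 points from the strongest bin to the weakest. With vehicle it included 0 in the third bin (-6.51, -15.9 to 3.99) and in the weakest (-12.7, -23.2 to 0.392), and with the combination in the third (-4.34, -14.4 to 6.58). With dexamethasone it included 0 in all 4, at -4.05, -7.1, -2.01 and -3.62 points.

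**Figure D2:**
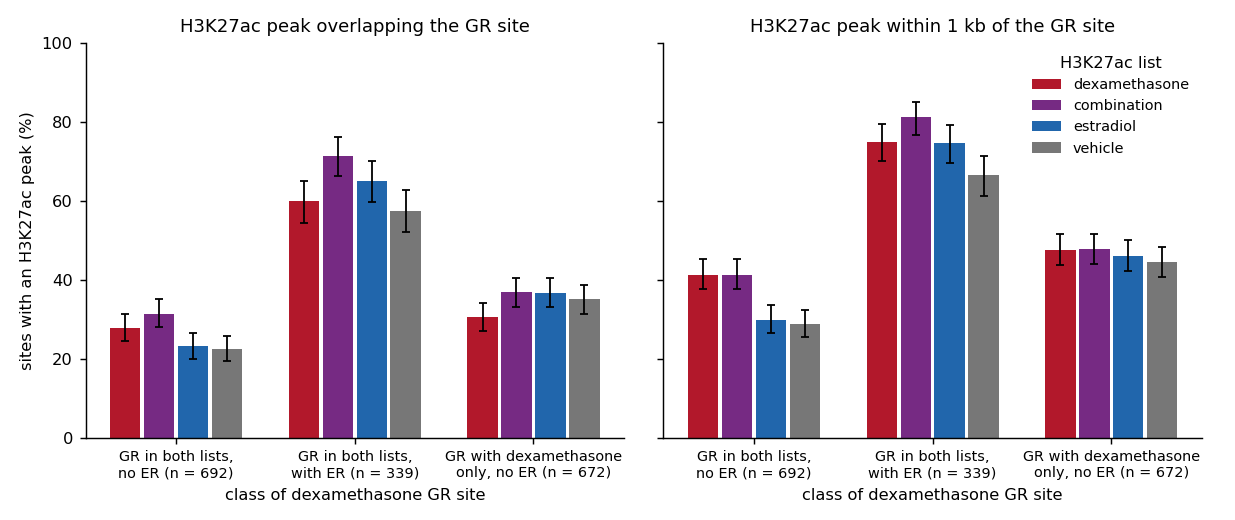
Share of GR sites (%) with an H3K27ac peak overlapping the site (left) or within 1 kb of it (right), for 3 classes of dexamethasone GR site and the 4 H3K27ac lists. Bars are shares and error bars are 95% Clopper-Pearson intervals over sites. Stable sites without ER are lowest in every list, and within 1 kb they reach 41.3% with dexamethasone and with the combination, against 29.9% with estradiol and 28.8% with vehicle.

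Counting H3K27ac within 1 kb of the GR peak separated the treatments further. With dexamethasone 286 sites (41.3%, 37.6 to 45.1) had a peak that close, and with the combination also 286 (41.3%). With estradiol the count was 207 (29.9%, 26.5 to 33.5) and with vehicle 199 (28.8%, 25.4 to 32.3). Over all dexamethasone GR sites the shares were 52.8%, 54.2%, 48% and 45.5%. Dexamethasone and the combination were thus level at the stable sites without ER, and both lay above the intervals of estradiol and vehicle.

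Following each site across the 4 lists, 447 of the 692 (64.6%, 60.9 to 68.2) overlapped no H3K27ac peak in any treatment, against 51.2% of all dexamethasone GR sites. Dexamethasone-only sites without ER were also mostly unmarked (56.2%, 52.4 to 60), and stable sites with ER were not (26%, 21.4 to 31). All 4 lists covered 122 of the 692 (17.6%, 14.9 to 20.7), against 29% of all. The share was 24% of dexamethasone-only sites without ER and 51.3% of stable sites with ER. At the stable sites without ER the next most common pattern was H3K27ac with dexamethasone and the combination and with neither estradiol nor vehicle. It was found at 35 sites (5.06%, 3.55 to 6.96), against 3.2% of all dexamethasone GR sites. Counted within 1 kb it was found at 60 sites (8.67%, 6.68 to 11), against 5.18% of all. The mirror pattern, estradiol and vehicle without dexamethasone or the combination, occurred at 4 sites (0.992% of all GR sites had it). The combination alone covered 25 sites, where 2.48% of all GR sites were covered so, and dexamethasone alone covered 11, where 1.05% of all were. Estradiol alone covered 3 sites and vehicle alone 3, where 1.43% and 0.606% of all were covered so. Among the stable sites with ER the dexamethasone-and-combination pattern was found at 11 of 339 (3.24%, 1.63 to 5.73), and at 12 of 672 dexamethasone-only sites without ER (1.79%, 0.926 to 3.1). The interval of the stable sites without ER overlapped the one with ER and lay above the dexamethasone-only one.

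The 35 sites marked with dexamethasone and the combination only fell in 34 separate H3K27ac regions. Their H3K27ac peaks had a median fold of 13.9 in the dexamethasone list (4.92 to 41.1) and 14.1 in the combination list (5.93 to 48.2), where all peaks had medians of 10.1 and 9.97. Median widths were 905 and 967 bp. The nearest H3K27ac peak was a median of 3.66 kb away with estradiol and 4.88 kb with vehicle, but it came within 0.006 and 0.007 kb at the closest site. Within 1 kb, 21 of the 35 kept the same pattern, 10 had a peak in all 4 lists, 3 had one with estradiol as well and 1 had one with vehicle as well. For those 14 sites the pattern therefore describes which peak edge reached the GR site and not a region without H3K27ac.

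The 5 strongest GR sites with this pattern were chr17:8057659-8057936 and chr6:35699661-35699937, described among the strongest 10, and chr9:92279849-92280131, chr14:34844287-34844533 and chr5:170182843-170183054. At chr6:35699661-35699937 (GR folds 61.3 with dexamethasone and 35.1 with the combination) the H3K27ac peak was 1201 bp wide with dexamethasone and 456 bp with the combination, and the nearest vehicle peak was 189 kb away, although an estradiol peak lay 3.86 kb away. At chr9:92279849-92280131 (45.2 and 30.6) the H3K27ac folds were 12.3 and 15.8, with the nearest peak 10.1 kb away with estradiol and 58.3 kb with vehicle. At chr14:34844287-34844533 (67.2 and 73.1) the H3K27ac folds were 14.2 and 14.8, with peaks 3.66 kb away with estradiol and 4.07 kb with vehicle. At chr5:170182843-170183054 (52.9 and 41.4) the dexamethasone H3K27ac fold was 5.68, below the median of its list, and the combination fold was 9.97, with estradiol and vehicle peaks 49.0 and 49.1 kb away. All 5 sites kept this pattern within 1 kb.

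The 122 sites marked in all 4 lists sat in stronger and wider H3K27ac peaks. Median folds were 20.7 with dexamethasone, 22.1 with the combination, 18.4 with estradiol and 15.7 with vehicle, where all peaks of those lists had medians of 10.1, 9.97, 11.0 and 9.58. Median widths were 2120.5, 2900, 2294.5 and 2160.5 bp. These sites fell in 113 separate regions, and their median GR fold was 17.7, against 21.6 at the 35 sites marked with dexamethasone and the combination only and 19.2 at the 447 sites in no list. The share of sites in no list differed little by GR strength. Of the 321 sites in the strongest 25% of the GR list, 195 (60.7%) had no H3K27ac in any list, and in each following 25% the share was 68.3%, 67.3% and 67.7%.

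The unmarked sites were mostly far from H3K27ac, and a minority lay beside it. The nearest peak was a median of 81.3 kb away with dexamethasone, 43.1 kb with the combination, 40.8 kb with estradiol and 48.7 kb with vehicle. Of the 447, 372 still had no peak within 1 kb in any list. Among the other 75, 20 had one with dexamethasone and the combination only, 19 with dexamethasone only, 11 with the combination only and 10 with all 4, while 2 had one with estradiol only and 1 with vehicle only. The strongest unmarked sites after those of chromosomes 6 and 11 described above were chr11:114033554-114033851 (GR fold 58.7 with dexamethasone and 43.5 with the combination), chr7:47797535-47797767 (69.8 and 37.0) and chr3:193581848-193582036 (58.7 and 37.2). Their nearest H3K27ac peaks were 237 to 276 kb, 24.3 to 25.5 kb and 7.63 to 7.73 kb away over the 4 lists.

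The sites at which a treatment and vehicle differed show the direction more directly. With dexamethasone, 55 stable GR sites without ER overlapped H3K27ac that vehicle lacked and 18 overlapped H3K27ac that only vehicle had. The first number was 75.3% of the differing sites (63.9 to 84.7). Over all dexamethasone GR sites 6.01% had H3K27ac with dexamethasone and not vehicle, and 6.34% the reverse, an even balance. With the combination the counts at the stable sites without ER were 76 and 14 (84.4%, 75.3 to 91.2), where 8.98% and 2.37% of all GR sites differed in these directions. With estradiol they were 19 and 14 (57.6%, 39.2 to 74.5), where 4.85% and 2.37% of all did. The interval for estradiol included an even split and those for dexamethasone and the combination did not. An even split is not the expected value for lists of unlike length and depth. Over all dexamethasone GR sites the shares were 48.7% with dexamethasone, 79.1% with the combination and 67.2% with estradiol. The intervals for the combination and estradiol included these values, and that for dexamethasone lay above its value. Each pair compares single libraries, so the intervals do not test a treatment. With the 4 lists cut to the same 15192 strongest peaks the shares were 81.7% with dexamethasone, 90.4% with the combination and 37% with estradiol, with 37% having an interval of 19.4 to 57.6 that included an even split, as the uncut one did.

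The other classes of GR site are set beside these counts in the same pairs of lists. At dexamethasone-only GR sites without ER the counts with dexamethasone were 30 with the hormone only and 60 with vehicle only (33.3%, 23.7 to 44.1), the opposite direction. At stable sites with ER they were 24 and 16 (60%, 43.3 to 75.1), an interval that overlapped that of the stable sites without ER. With the combination the stable sites with ER had 50 with the hormones only and 3 with vehicle only (94.3%, 84.3 to 98.8), the same direction as those without ER, and the dexamethasone-only sites without ER had 35 and 23 (60.3%, 46.6 to 73). With estradiol the stable sites with ER had 32 with the hormone only and 7 with vehicle only (82.1%, 66.5 to 92.5), against 19 and 14 at the stable sites without ER, with overlapping intervals. Within 1 kb the dexamethasone counts were 99 and 12 at the stable sites without ER (89.2%, 81.9 to 94.3), where 10% and 2.7% of all GR sites differed in these directions, 37 and 8 at the stable sites with ER (82.2%, 67.9 to 92), and 46 and 25 at the dexamethasone-only sites without ER (64.8%, 52.5 to 75.8). The direction of the dexamethasone-only class thus turned with the distance, and that of both stable classes did not. At this distance the stable sites without ER had 95 with the combination only and 8 with vehicle only, where 10.4% and 1.65% of all did, and 20 with estradiol only and 12 with vehicle only, where 3.97% and 1.38% of all did. By overlap, most differing stable sites without ER lay in the stronger 25% bins of the GR list. From the strongest bin down, dexamethasone and vehicle counts were 29 and 9, 15 and 2, 5 and 4, and 6 and 3. With the combination they were 45 and 6, 20 and 3, 7 and 0, and 4 and 5. Dexamethasone-only sites were weaker, and the part of GR strength in these directions was not tested. The comparisons with vehicle share the vehicle list, so they are not independent of each other.

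**Figure D3:**
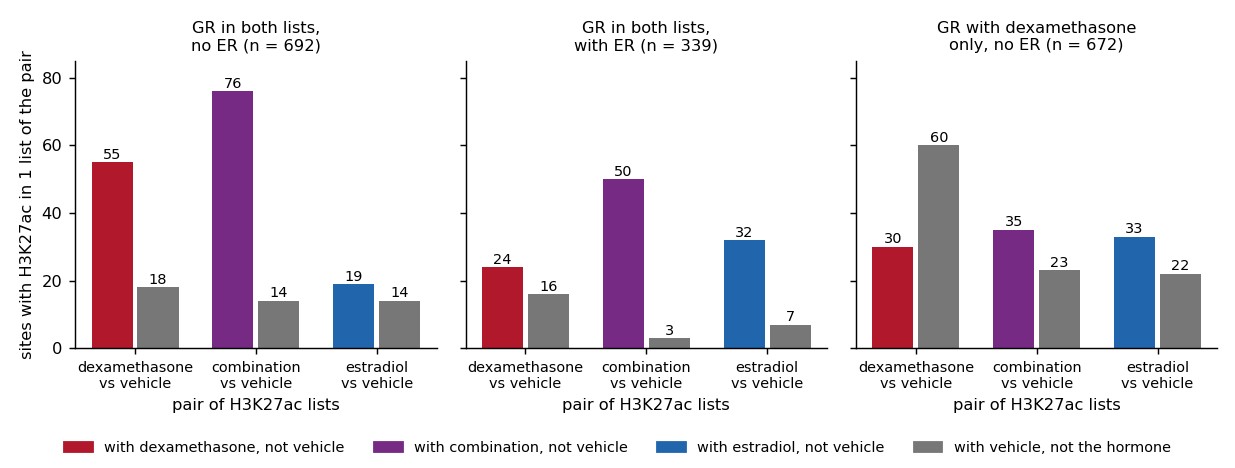
Number of GR sites that overlap H3K27ac in only 1 list of a pair, for each hormone treatment (coloured) and vehicle (grey), in 3 classes of dexamethasone GR site. At the 692 stable sites without ER the counts are 55 and 18 with dexamethasone, 76 and 14 with the combination and 19 and 14 with estradiol.

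Counts without the short dexamethasone list are a description, in a setting chosen after seeing the data. Leaving that list out, 60 stable sites without ER had H3K27ac with the combination and with neither estradiol nor vehicle. Against these, 8 had it with both estradiol and vehicle and not the combination. These counts were 23 and 2 at the stable sites with ER, and 19 and 15 at the dexamethasone-only sites without ER. The first count needs a call in 1 list and the second in 2, so they are not mirror images. Of the 60, 25 had H3K27ac with the combination alone over all 4 lists. Set against estradiol directly, the combination covered 68 stable sites without ER that estradiol lacked, and estradiol 11 that the combination lacked (86.1%, 76.5 to 92.8), where 7.22% and 3.09% of all GR sites differed so. Within 1 kb these counts were 86 and 7, where 8.21% and 2.04% of all differed. The stable sites with ER leaned the same way in that pair, at 29 and 7 by overlap (80.6%, 64 to 91.8) and at 26 and 4 within 1 kb, and the dexamethasone-only sites without ER were even by overlap, at 33 and 32. Between the combination and dexamethasone the counts were 43 and 18 by overlap, where 8.87% and 1.93% of all GR sites differed. Within 1 kb they were 28 and 28, where 4.52% and 3.09% of all did, so that difference was not seen at the wider distance.

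Seen from the H3K27ac regions, the direction at these sites ran against that of the genome with dexamethasone. The 4 lists were merged into 27111 regions, of which 2940 (10.8%) were present with dexamethasone and not vehicle and 9568 (35.3%) the reverse, so that 23.5% of the differing regions were the dexamethasone ones. Of the 424 regions within 1 kb of a stable GR site without ER, 169 were present with dexamethasone and not vehicle and 17 the reverse (90.9%, 85.8 to 94.6). A site with separate peaks on both sides of its summit adds more than 1 region. Regions near a class are therefore not independent, and their intervals do not allow for that. Counted by site within 1 kb, the numbers were 99 and 12. With the combination the regions near these sites numbered 149 and 16 (90.3%, 84.7 to 94.4), against 14.9% and 15.1% of all regions. With estradiol they numbered 26 and 19 (57.8%, 42.2 to 72.3), although over all regions estradiol had 21.8% present with the hormone only and 4.6% with vehicle only. Of the 3899 regions found with estradiol alone, 3 had a stable GR site without ER within 1 kb, 9 had a stable site with ER and 15 a dexamethasone-only site without ER. Few of these regions lay near any dexamethasone GR site, 29 in all (0.744%).

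The regions near other GR sites leaned the same way with dexamethasone, at 68 present with the hormone only and 10 with vehicle only near stable sites with ER (87.2%, 77.7 to 93.7) and at 99 and 39 near dexamethasone-only sites without ER (71.7%, 63.5 to 79.1). With the combination, regions near stable sites with ER numbered 99 and 0 (100%, 96.3 to 100), an interval above that of the stable sites without ER, and those near dexamethasone-only sites without ER 75 and 27 (73.5%, 63.9 to 81.8). With estradiol, regions near stable sites with ER numbered 49 present with the hormone only and 3 with vehicle only (94.2%, 84.1 to 98.8), an interval above that of the sites without ER. Regions in the dexamethasone and combination lists and neither other numbered 916 (3.38% of all regions), and 91 of these had a stable GR site without ER within 1 kb. They formed 21.5% of the 424 regions near such sites (17.6 to 25.7), against 10.6% of those near stable sites with ER (7.5 to 14.4) and 6.88% of those near dexamethasone-only sites without ER (4.75 to 9.58). These 91 regions had a median width of 812 bp, where all 916 had 591.5 bp, and the part of width in these shares was not tested.

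An uncovered GR summit with H3K27ac on both sides was most frequent with dexamethasone. With dexamethasone the summit lay inside an H3K27ac peak at 136 of the 692 sites (19.7%), and peaks lay on both sides within 1 kb without covering it at a further 97 (14%, 11.5 to 16.8). With the combination these counts were 170 and 51 (7.37%, 5.54 to 9.58), with estradiol 136 and 25 (3.61%, 2.35 to 5.29), and with vehicle 134 and 18 (2.6%, 1.55 to 4.08). The share of sites with the summit inside a peak was nearly the same with dexamethasone (19.7%), estradiol (19.7%) and vehicle (19.4%). Dexamethasone differed in the sites with peaks on both sides and none on the summit, where its interval lay above the other 3. Over all dexamethasone GR sites the summit lay inside a peak at 28% with dexamethasone, 36.8% with the combination, 35.8% with estradiol and 33.3% with vehicle, and peaks lay on both sides only at 17%, 9.64%, 5.62% and 4.57% in that order. The shares with peaks on both sides followed the same order of lists in the other classes, at 24.5%, 15.6%, 10% and 8.55% of stable sites with ER and 13.8%, 8.04%, 4.76% and 4.02% of dexamethasone-only sites without ER, so that order is not particular to the stable sites without ER. Peaks of the dexamethasone list were also the narrowest of the 4 lists, and the part of peak width in this count was not tested.

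Averaged over sites, the share inside an H3K27ac peak dipped more at the summit with both treatments that contained dexamethasone than with estradiol or vehicle. It was 19.7% at the summit and 30.55% at 500 bp to either side with dexamethasone, and 24.6% and 32.55% with the combination. With estradiol the values were 19.7% and 21.7%, and with vehicle 19.4% and 19.2%. Estradiol and vehicle were highest at -350 bp, with 24.1% and 21.7%, so they had a smaller dip. At 5 kb all 4 lists were between 4.05% and 5.49%. The stable sites with ER had a dip in every list, with 43.4% at the summit and 67.25% at 500 bp with dexamethasone, and 51.9% and 57.35% with vehicle. Dexamethasone-only sites without ER had 25.3% and 37.05% with dexamethasone, and 31.5% and 37.65% with the combination. Their values were 33.6% and 34.65% with estradiol, and 31.2% and 32.65% with vehicle. A deeper dip with the treatments that contained dexamethasone was therefore not particular to the stable sites without ER.

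**Figure D4:**
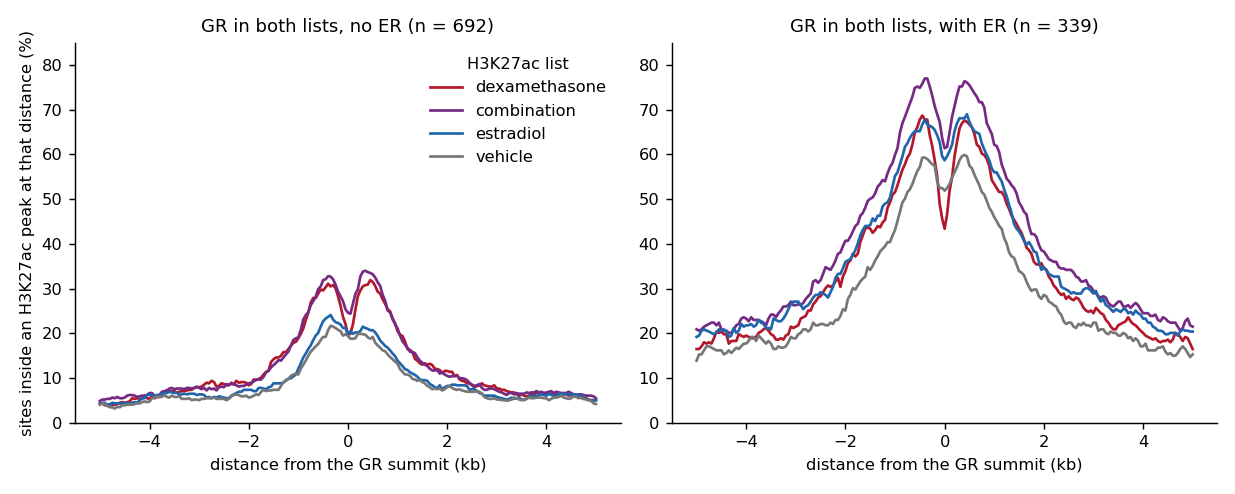
Share of sites (%) that lie inside an H3K27ac peak at each distance from the GR summit (kb), for stable GR sites without ER (left) and with ER (right), 1 line per H3K27ac list. Without ER, the dexamethasone and combination lines have 2 shoulders with means of 30.55% and 32.55% at 500 bp from the summit. The estradiol and vehicle lines are near 20% there, at 21.7% and 19.2%, and are highest at -350 bp, at 24.1% and 21.7%.

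Where these sites had H3K27ac, the peaks were wide and strong for their list, though less so than at stable sites with ER. Peaks overlapping the stable sites without ER had median widths of 1431 bp with dexamethasone, 1746 bp with the combination, 1602.5 bp with estradiol and 1626 bp with vehicle, against 2824, 3278, 3440 and 2868 bp at the stable sites with ER. Their median folds were 17.0, 16.3, 16.7 and 14.0, against 21.1, 22.9, 25.05 and 18.3. The H3K27ac summit lay a median of 347.5 bp from the GR summit with dexamethasone, 388 bp with the combination, 307 bp with estradiol and 311 bp with vehicle. Since a wide peak touches more sites than a narrow one, medians over overlapping peaks lean to wide ones in every class.

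Although none of the sites overlapped an ER peak, some had one close by, and H3K27ac was more frequent there. The nearest ER peak of either list was a median of 139 kb away (quartiles 28.1 and 495 kb), close to the 131 kb of dexamethasone-only sites without ER. It lay within 1 kb of 31 sites, within 10 kb of 105 and beyond 100 kb from 381. Up to 10 kb from ER, 49.5% of sites overlapped H3K27ac with dexamethasone, 57.1% with the combination, 44.8% with estradiol and 42.9% with vehicle. Beyond 100 kb the shares were 21.5%, 23.6%, 16.3% and 15%. No list covered 38.1% of the sites up to 10 kb from ER (28.8 to 48.1), 62.1% of those 10 to 100 kb away (55.1 to 68.8) and 73.2% of those farther off (68.5 to 77.6). In each band the shares with dexamethasone and with the combination were above that with vehicle, and only the combination beyond 100 kb had an interval clear of the vehicle one. The same sites are scored in every list, so overlap of these separate intervals does not measure the difference between lists. The 35 sites marked with dexamethasone and the combination only lay a median of 148 kb from ER, whereas the 122 marked in all lists lay 44.6 kb from it.

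**Figure D5:**
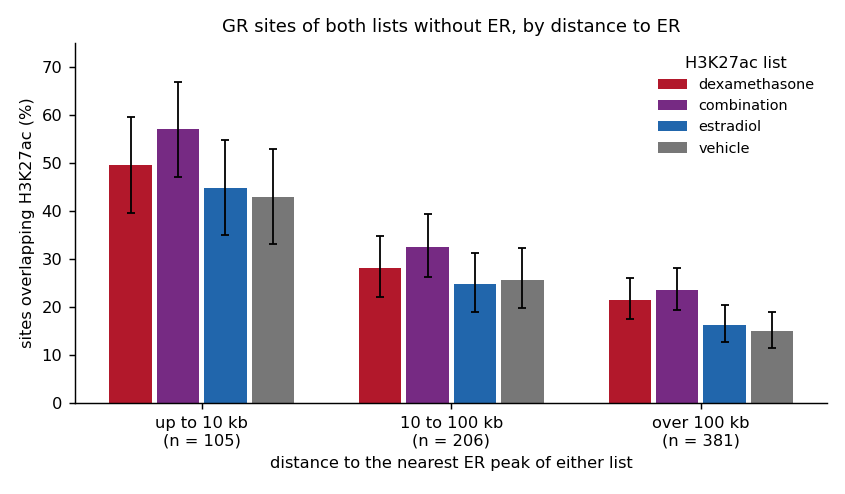
Share of the 692 stable GR sites without ER (%) that overlap H3K27ac, by distance to the nearest ER peak of either ER list and by H3K27ac list. Error bars are 95% Clopper-Pearson intervals over sites. With dexamethasone the shares are 49.5% for 105 sites up to 10 kb from ER, 28.2% for 206 sites 10 to 100 kb away and 21.5% for 381 sites farther off.

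The sites were spread over the genome, mostly singly. The median distance to the next such site was 795 kb. They made up 38.1% of all dexamethasone GR peaks. By chromosome the lowest share was 20.2% on chromosome 11 (20 of 99, 12.8 to 29.5). The highest were 53.3% on chromosome X (16 of 30, 34.3 to 71.7) and 51.8% on chromosome 14 (29 of 56, 38 to 65.3). The intervals of chromosomes X and 14 included 38.1% and that of chromosome 11 lay below it. These are extremes picked from all chromosomes, and a preference for a chromosome was not tested. Sites within 10 kb of one another numbered 62, in 29 groups, and no group held more than 3. There were 4 groups of 3, which were tied in size.

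The groups of 3 show that neighbouring GR sites could differ in H3K27ac. At chr6:35690307-35699937, spanning 9.63 kb, the dexamethasone GR folds were 32.1, 41.6 and 61.3 in order of position. The first site had no H3K27ac in any list, the second overlapped it with the combination and estradiol and the third with dexamethasone and the combination. At chr21:44933016-44939099 the folds were 14.8, 24.6 and 43.8, and the first site overlapped H3K27ac with dexamethasone only while the second and the third did in all 4 lists. All 3 sites of chr4:102874283-102876362 were marked in all 4 lists, with GR folds of 31.5, 11.8 and 10.4. At chr4:23784389-23785061 the sites lay within 0.673 kb of each other with low folds of 9.96, 11.4 and 11.1. The first and second overlapped H3K27ac with dexamethasone and the combination, the third with vehicle as well, and all 3 had a peak of every list within 1 kb. The first and second are among the 4 sites that share a combination GR peak with a neighbour.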

How the data were processed

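Peak lists of 8 ChIP-seq libraries were analysed. The submitters' processing notes name Bowtie 1.1.2, MACS2 2.1.0.20140616 and hg19. Each library was called alone against a control at a p cutoff of 1e-10, with the larger library scaled down, per the file headers. The labels of the control name both input and IgG, so its kind is uncertain. The deposited pileup is a signal (fragment coverage at the summit, per the file headers), the authors gave each peak a −log10 p-value and −log10 q-value, and fold enrichment is the authors' ratio of pileup to local background. Scaling and depth differ between lists, so these values rank or describe peaks within a list. Positions are deposited in bp on hg19. The treatment protocol text gives 1 h for all libraries, and the 8 h of the H3K27ac libraries is from the treatment label. Whether a library pools cultures is not given in the sources used here.

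Overlap was at least 1 bp (Python 3.11.15, pandas 2.3.3, numpy 2.4.6). Shares carry Clopper-Pearson and differences Newcombe 95% intervals (scipy 1.17.1), for counting error only, and neighbouring sites are not independent. The 4 H3K27ac lists were merged where peaks overlapped or touched. No p-value was computed. The overlap code was tested on simulated data. The members, classes and settings were chosen with earlier results of these data known. The sites named are the 10 with the highest −log10 q in the dexamethasone GR list, the 5 highest among those marked with dexamethasone and the combination only and among those marked in no list, and the largest groups within 10 kb (3 were to be named, and 4 tied). Gene names, gene distances, motifs and sequences were not analysed here, as no hg19 genome or annotation was used.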

Additional observations from a re-analysis of the deposited data

How the results depend on the processing

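Of 99 alternative values, 68 stayed within the limits set for an unchanged result, 31 moved and 0 reversed, where only a value whose interval excluded 0 or an even split could reverse. The number of members stayed close to 692 except with both GR lists cut to their stronger 50%, where it was 373. Counting H3K27ac within 1 kb moved the shares to 41.3% with dexamethasone, 41.3% with the combination, 29.9% with estradiol and 28.8% with vehicle, the dexamethasone-and-combination pattern to 60 sites, and the hormone shares of differing sites to 89.2% (dexamethasone) and 92.2% (combination). Requiring the GR summit inside the H3K27ac peak gave 19.7%, 24.6% and 19.7% with dexamethasone, the combination and estradiol. H3K27ac lists cut to their stronger 50% gave 23.3%, 26%, 17.3% and 17.2% in the order dexamethasone, combination, estradiol, vehicle. With lists of equal length (15192 peaks) the estradiol share was 19.2%, and 37% of the sites that differed between estradiol and vehicle had H3K27ac with estradiol (19.4 to 57.6), against 57.6% (39.2 to 74.5) uncut, both intervals including an even split. Leaving out the dexamethasone list gave 60 sites with the combination only; this setting and the shares of differing sites were chosen after seeing the data. Members minus stable sites with ER stayed negative in all 24 alternatives. Within the 25% strength bins of the GR list (bin 1 the strongest, bin 4 the weakest) the differences that moved were, in percentage points, -52.9 with the combination in bin 4, -33.3, -49.1 and -48.6 with estradiol in bins 1, 2 and 4, and -28.3 and -41.2 with vehicle in bins 1 and 4. Members minus dexamethasone-only sites without ER also stayed negative in all 24, and those that moved were -25.9, -10.8 and -13.5 with the combination in bins 1, 2 and 4, -30.6 with estradiol in bin 1, and -32.5, -17.8 and -6.51 with vehicle in bins 1, 2 and 3. Bin 1 held 18 dexamethasone-only sites. The cause of these shifts was not tested. The motif and gene distance settings were not run, as no hg19 genome or annotation was used. No paired analysis was possible because each group holds 1 library.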
